A study of Rattus norvegicus with 56 samples.

Results

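The rat miR-183, miR-96 and miR-182 cluster was followed through its 3 main mature arms, miR-183-5p, miR-96-5p and miR-182, among 682 mature microRNAs listed in the deposited tables. Their rows were taken by name, and all 3 were listed in myocardium (of 661 microRNAs), amniotic fluid (of 523) and maternal serum (of 518). The study asked which microRNAs differ in fetal rats with a ventricular septal defect (VSD), a hole between the ventricles. Sprague-Dawley dams were given dimethadione (DMO), a compound that causes heart defects in the rat fetus, by gavage in repeated doses, and control dams (NC group) received distilled water. The VSD group held fetuses of DMO dams with VSD and no malformation of the major vessels, and the non-VSD group held fetuses of DMO dams with an intact septum. Samples were collected on embryonic day 19, giving 56 samples, 7 per group: NC, non-VSD and VSD for both myocardium and amniotic fluid, and NC and VSD for maternal serum. Myocardial RNA came from wax blocks of the fetal heart. Dams are not named in the labels. Littermates could therefore not be recognised, and p-values measure the spread between these samples.

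Genes of the miR-183 cluster are transcribed together into 1 precursor, from which the hairpins of the members are cut. The cluster is known for its high level in sensory cells, such as the hair cells of the inner ear and the photoreceptors of the retina, and it is also made in many epithelia. Mutations in the seed of miR-96 cause hearing loss. A microRNA finds its targets mainly by its seed, bases 2 to 8 from the 5′ end, so the mature sequences are shown with the seed in capitals to compare what each member could recognise. They come from RefSeq (build GRCr8), which held a sequence for 617 of the 682 listed microRNAs.
miR-183-5p: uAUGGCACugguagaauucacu
miR-96-5p: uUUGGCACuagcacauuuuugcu
miR-182: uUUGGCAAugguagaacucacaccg
The seeds of miR-183-5p and miR-96-5p had 6 of 7 bases in common and differed at A2U, counted from 1 at the 5′ end of the mature arm. Those of miR-96-5p and miR-182 also had 6 of 7 in common and differed at C8A. The seeds of miR-183-5p and miR-182 had 5 of 7 in common, with both A2U and C8A. No other mature rat microRNA in the RefSeq table carried any of these 3 seeds. Over the whole mature arm, seed included, miR-96-5p had 10 U in 23 bases, against 7 in 22 for miR-183-5p and 6 in 25 for miR-182.

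All 3 hairpins lie on the minus strand of chromosome 4 (GRCr8), and in the direction of transcription miR-183 comes first. The Mir183 hairpin spans 59756044 to 59756153, the Mir96 hairpin 59755841 to 59755946, and the Mir182 hairpin 59752246 to 59752307. Mir183 and Mir96 are 97 bases apart, and Mir182 follows after a gap of 3533 bases, so that the cluster covers 3908 bases. The mature arms lie at 59756106 to 59756127 (miR-183-5p), 59755901 to 59755923 (miR-96-5p) and 59752249 to 59752273 (miR-182).

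Depth differed between the tissues, with 1694811 to 9371130 counted reads per library in myocardium, 147609 to 581350 in maternal serum and 78188 to 331787 in amniotic fluid. Amniotic fluid libraries were made with another kit and sequencer than the myocardium and serum libraries, so levels are set side by side across tissues without a test, and only differences within a tissue were tested. As a check of the labels, the summed level of 6 cardiac muscle microRNAs was 5024 to 62416 CPM (counts scaled to a common library total) in myocardium, against 0 to 5242 CPM in amniotic fluid and 1566 to 15243 CPM in serum. Among the 21 myocardium libraries, 4 (NC replicate 2 and VSD replicates 1, 4 and 5) stood apart by the summed level of 8 epithelial microRNAs (the miR-200 family, miR-141-3p, miR-203a-3p, miR-205 and miR-375-3p), at 13727 to 21156 CPM against 167 to 7238 CPM in the other 17. Every myocardium comparison is therefore also given without these 4.

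The cluster was most abundant in amniotic fluid. Its summed reads took a mean of 2.99% ± 1.04 (SD, n = 7) of the NC amniotic fluid libraries, 3.62% ± 1.38 of the VSD libraries and 1.97% ± 0.71 of the non-VSD libraries. In myocardium the share was 0.206% ± 0.219 in NC, 0.392% ± 0.321 in VSD and 0.137% ± 0.104 in non-VSD libraries, and in the NC group the SD exceeded the mean. In maternal serum it was 0.203% ± 0.088 in NC and 0.255% ± 0.110 in VSD libraries. Members are compared with each other by reads, since 1 read stands for 1 mature arm of 22 to 25 bases and needs no division by length. Kits are known to capture microRNAs with unequal efficiency, so these shares describe reads.

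MiR-183-5p ranged from 5063 to 30966 CPM (median 15133, with libraries of a tissue scaled to each other by TMM, which takes most microRNAs as equal between libraries) over the 21 amniotic fluid libraries, from 727 to 2168 CPM (median 1329) over the 14 serum libraries and from 74.4 to 1806 CPM (median 398) over the 21 myocardium libraries. MiR-182 ranged from 4650 to 22184 CPM (median 11924) in amniotic fluid, from 177 to 3815 CPM (median 959) in myocardium and from 412 to 1694 CPM (median 867) in serum. For both, amniotic fluid lay above the other tissues with no overlap, while the ranges of myocardium and serum overlapped. MiR-96-5p ranged from 165 to 947 CPM (median 482) in amniotic fluid, from 5.02 to 322 CPM (median 38.0) in myocardium and from 0 to 47.0 CPM (median 5.55) in serum, and here each tissue overlapped its neighbour in the order. By place in the library, counted from the most abundant microRNA, miR-182 took a median place of 16 in NC amniotic fluid, 77 in NC myocardium and 69 in NC serum, and miR-96-5p took 119, 286 and 336.

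**Figure D1:**
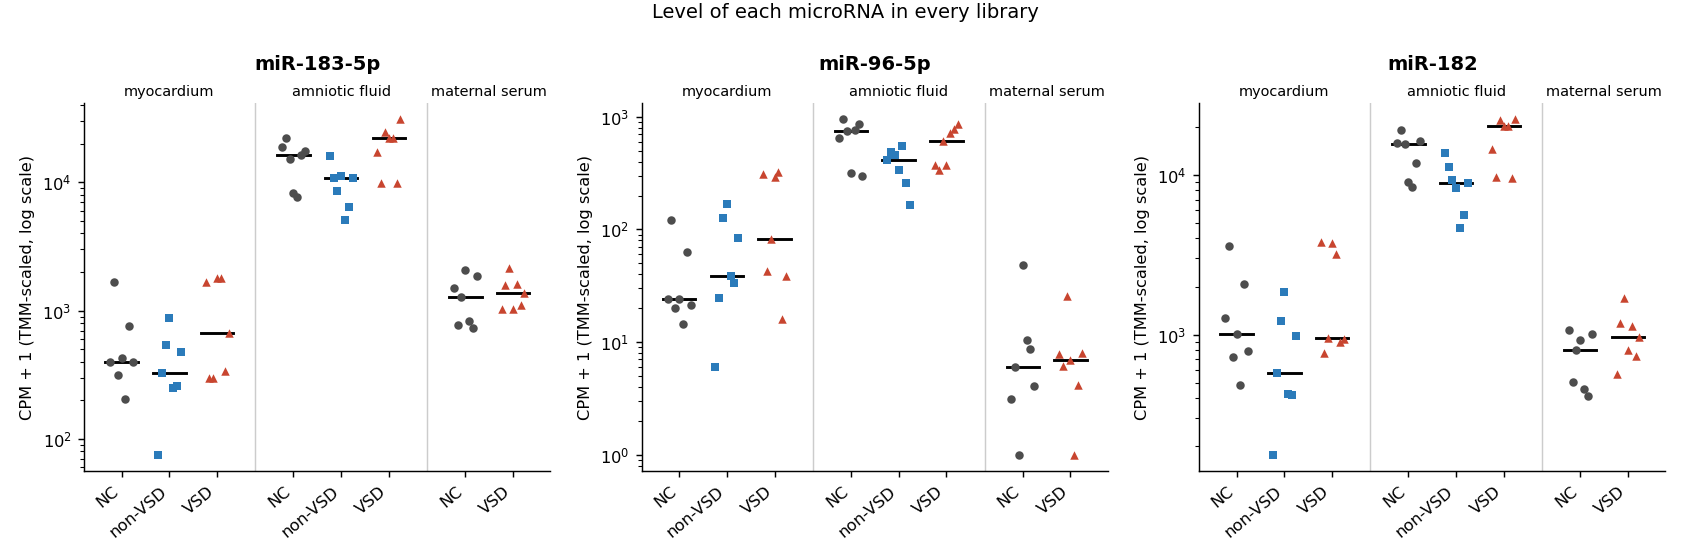
Level of miR-183-5p, miR-96-5p and miR-182 in CPM + 1 (TMM-scaled within each tissue, log scale) in every library, 1 point per library, with a bar at the median of the 7 libraries of a group. Amniotic fluid lies above myocardium and serum for miR-183-5p and miR-182, and in myocardium 3 VSD libraries and 1 NC library lie above the rest for these 2 members.

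The share of the cluster's reads held by each member also differed between tissues. In NC libraries, miR-182 held 69.4% ± 3.3 (SD, n = 7) of the cluster's reads in myocardium, 47.0% ± 3.6 in amniotic fluid and 36.7% ± 3.6 in serum. MiR-183-5p held 28.8% ± 3.2, 50.6% ± 3.8 and 62.8% ± 3.2 in the same order. MiR-96-5p was the minor member throughout, with 1.82% ± 0.30, 2.38% ± 1.16 and 0.505% ± 0.544. Myocardium and serum libraries were made with the same library kit, and there miR-183-5p and miR-182 stood in opposite order. Their RNA was extracted with different kits, from wax blocks for myocardium, and the part of extraction in this order was not tested.

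The passenger arms, cut from the other side of each hairpin and usually degraded, were near the limit of detection. MiR-183-3p had 82 reads over the NC, 31 over the non-VSD and 94 over the VSD myocardium libraries, against 32762, 16897 and 69982 reads of miR-183-5p. In amniotic fluid it had 19 reads over 3 NC libraries, 24 over 3 non-VSD libraries and 0 in the VSD group, where a count of 0 allows up to 36.9 CPM in the smallest library (3 counts, counting error only). MiR-96-3p was counted in myocardium only, with 4 reads over the NC and 2 over the VSD libraries, and miR-182-3p was not listed. MiR-183-3p passed the filter on low counts in 1 comparison, VSD against non-VSD myocardium, at a log2 fold change of 1.03 ± 0.56 (SE, edgeR adjusted p = 0.453).

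In each comparison, microRNAs were tested by edgeR's quasi-likelihood test over all that passed the filter, with Benjamini-Hochberg adjustment. The study's own threshold for a DE-microRNA was also applied, namely 2-fold or more in either direction together with an unadjusted p under 0.05. No member reached an adjusted p under 0.05 in any of the 7 comparisons, while 5 of the 20 member tests had an unadjusted p under 0.05. Over all microRNAs, 90 of 469 (VSD against NC), 80 of 456 (non-VSD against NC) and 56 of 483 (VSD against non-VSD) did so in myocardium. In amniotic fluid these were 33 of 245, 47 of 242 and 29 of 273 in the same order, and in serum 30 of 219. MiR-182 and miR-183-5p varied together, so their tests are not independent. By DESeq2, 1 member passed in VSD against NC myocardium, where 46 of 469 microRNAs did, and none elsewhere, and by limma none passed. VSD and non-VSD samples were each compared with the same NC samples, so those comparisons are not independent.

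**Figure D2:**
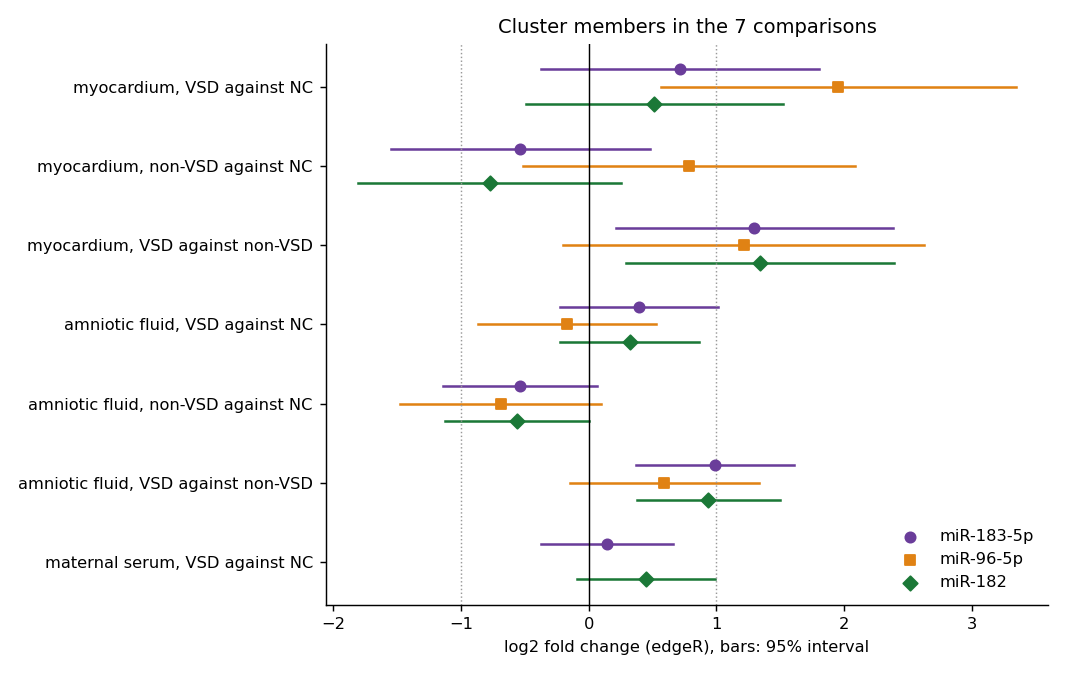
Log2 fold change (edgeR) of the 3 members in the 7 comparisons, with 95% intervals as bars, a solid line at 0 and dotted lines at a 2-fold difference. MiR-96-5p in VSD against NC myocardium (1.95) is the highest point, and in VSD against non-VSD the members lie to the right in both tissues. MiR-96-5p was under the filter in serum and has no point there.

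In myocardium of VSD fetuses, miR-96-5p had the largest fold change of the 3 members against NC. Its level was 13.4 to 121 CPM in NC libraries (median 23.0) and 15.1 to 322 CPM in VSD libraries (median 81.3). Of the VSD libraries, 6 lay above the NC median, and 3 (replicates 1, 4 and 5) lay above every NC library, while the others overlapped the NC range. The fitted difference was 3.87-fold, at a log2 fold change of 1.95 ± 0.71 (SE, 95% interval 0.56 to 3.34), with an unadjusted p of 0.0144 and an edgeR adjusted p of 0.147. It met the DE-microRNA threshold, as did 32 of 469 microRNAs (6.82%), and 0.426% (2 of 469) passed at an adjusted p under 0.05. The exact permutation test of mean log2 CPM over all groupings of the samples gave a difference of 1.62 (two-sided p = 0.0647, adjusted p = 0.249).

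MiR-183-5p lay at 203 to 1673 CPM in NC (median 398) and 296 to 1806 CPM in VSD myocardium (median 663). MiR-182 lay at 480 to 3608 CPM in NC (median 1002) and 766 to 3815 CPM in VSD (median 959), so that its median was slightly lower in VSD while its mean was higher (2046 ± 1455 against 1421 ± 1095 CPM, SD). Both sets of values overlapped over most of their range. Log2 fold changes were 0.71 ± 0.55 for miR-183-5p (edgeR adjusted p = 0.476, 95% interval -0.37 to 1.80) and 0.52 ± 0.51 for miR-182 (edgeR adjusted p = 0.582, 95% interval -0.49 to 1.52).

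These myocardium values moved with the epithelial microRNAs. All 8 of that list were counted in each group, none at 0, with a summed level of 167 to 17532 CPM in NC (median 1084), 296 to 7238 in non-VSD (median 1811) and 1910 to 21156 in VSD (median 3385). All 8 had a positive log2 fold change in VSD against NC, with a median of 1.20, against -0.05 over all 469 microRNAs tested, and none passed the test. The 6 cardiac muscle microRNAs summed to 5024, 7527 and 9440 CPM in NC replicate 2 and VSD replicates 1 and 4, below the 21759 to 62416 CPM of the other 18 libraries. Without the 4 libraries of high epithelial level, the log2 fold change of VSD against NC was 0.72 for miR-96-5p, -0.04 for miR-183-5p and -0.23 for miR-182, and no member met the DE-microRNA threshold. The 4 red blood cell microRNAs had negative values in myocardium, with a median log2 fold change of -2.37 in VSD against NC (4 of 4 at the DE-microRNA threshold, none at an adjusted p under 0.05) and -1.61 in non-VSD against NC (3 of 4). Their summed level was 3266 to 73069 CPM in NC, 3051 to 34882 in non-VSD and 4766 to 24223 in VSD myocardium. The 4 white blood cell microRNAs had a median of -0.98 in VSD against NC (2 of 4 DE-microRNAs, both lower) and -0.63 in non-VSD against NC (1 of 4, lower), with a summed level of 525 to 3013 CPM in NC, 354 to 2087 in non-VSD and 309 to 1100 in VSD myocardium. The part of both blood cell lists was not tested. In bulk tissue, more cells of a type and more of its RNA per cell cannot be told apart. The 4 libraries left out were also the highest for miR-183-5p and miR-182, and most were VSD libraries. Leaving them out therefore cannot show why the differences fell, and the part of the epithelial level in these differences was not tested.

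Over the 21 myocardium libraries, each member followed the summed epithelial level after group means were removed. Pearson's r on the log2 scale was 0.85 for miR-183-5p (Spearman's rho 0.79), 0.83 for miR-96-5p (rho 0.81) and 0.84 for miR-182 (rho 0.81). Permutation p-values within groups were at most 2e-05 for r and 1e-04 for rho, with adjusted values of 0.000225 and 0.0009 over 45 such relations. Without the 2 libraries farthest from the median epithelial level, r was 0.77, 0.78 and 0.77. In the opposite direction, r against the cardiac muscle sum was -0.71 for miR-183-5p, -0.70 for miR-96-5p and -0.76 for miR-182 (rho -0.66, -0.77 and -0.79, adjusted permutation p of at most 0.0118), and -0.57, -0.62 and -0.67 without the 2 farthest libraries. Against the sum of 6 ciliated airway microRNAs of the miR-34 and miR-449 family, r was 0.77, 0.75 and 0.76 (rho 0.75, 0.76 and 0.70, adjusted permutation p of at most 0.0054), and 0.72, 0.73 and 0.69 without the 2 farthest. In amniotic fluid, where the epithelial list summed to 51363 to 155666 CPM, r was 0.37 for miR-183-5p, 0.06 for miR-96-5p and 0.35 for miR-182 (rho 0.33, 0.13 and 0.29), and none had an unadjusted permutation p under 0.05.

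**Figure D3:**
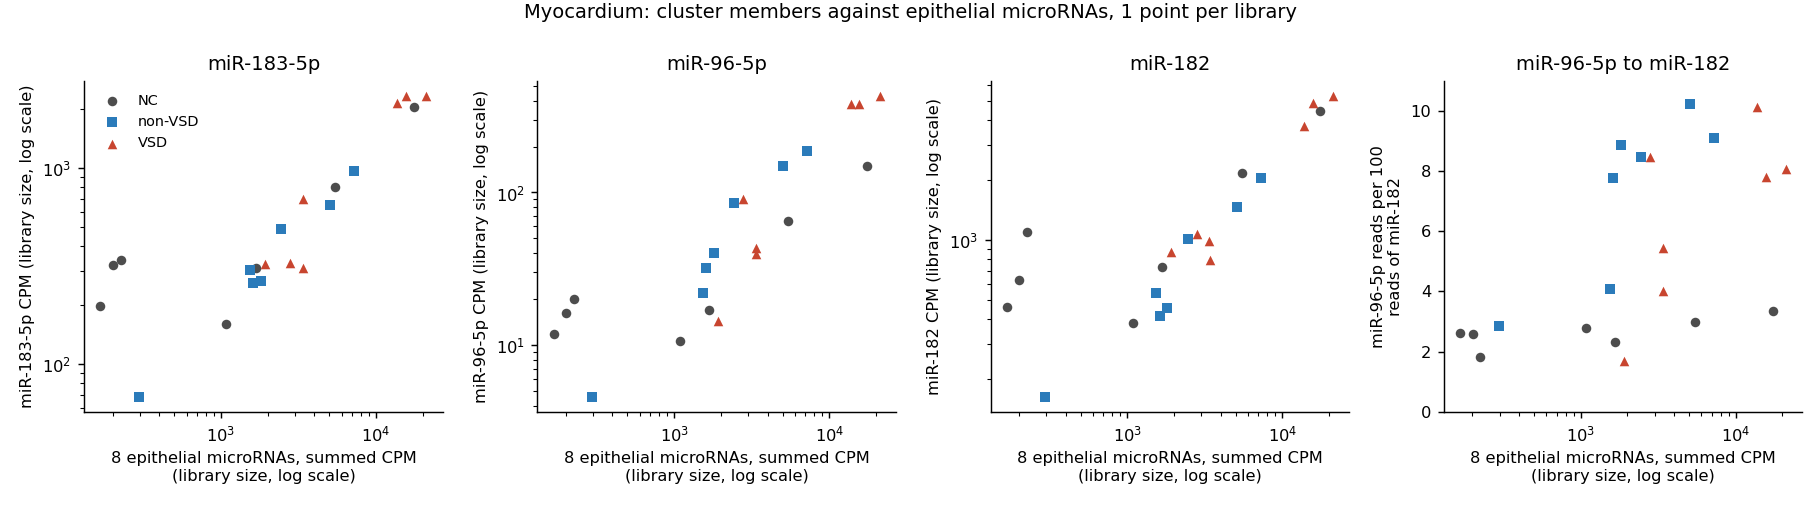
Each member (CPM by library size, log scale) and the number of miR-96-5p reads per 100 reads of miR-182 (linear scale) against the summed level of 8 epithelial microRNAs in myocardium (CPM by library size, log scale), 1 point per library. The 4 libraries at 13727 CPM of epithelial microRNAs or more are also the highest for miR-183-5p and miR-182, and in the last panel the 7 NC points stay between 1.82 and 3.34 across the whole range.

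In non-VSD myocardium, miR-96-5p lay at 5.02 to 169 CPM (median 37.8), with 6 of 7 libraries above the NC median. MiR-183-5p lay at 74.4 to 876 CPM (median 323) and miR-182 at 177 to 1854 CPM (median 575), with 3 and 2 libraries above the NC medians. The members thus pointed in different directions against NC, with log2 fold changes of 0.79 ± 0.66 for miR-96-5p, -0.53 ± 0.52 for miR-183-5p and -0.77 ± 0.52 for miR-182 (SE). The edgeR adjusted p-values were 0.628, 0.666 and 0.532, and the 95% intervals ran from -0.52 to 2.09, from -1.55 to 0.48 and from -1.80 to 0.25. No member was a DE-microRNA in that comparison, where 4.17% (19 of 456) were and 0.219% (1 of 456) passed at an adjusted p under 0.05. Without NC replicate 2, the NC library of high epithelial level, miR-96-5p met the DE-microRNA threshold at a log2 fold change of 1.39, where 25 of 455 microRNAs did. The difference of mean log2 CPM was then 0.85 for miR-96-5p, -0.26 for miR-183-5p and -0.59 for miR-182 (exact permutation p = 0.281, 0.656 and 0.307). With 1 sample left out, the log2 fold change ranged from -0.89 to -0.00065 for miR-183-5p. For miR-182 it ranged from -1.16 to -0.33, and for miR-96-5p from 0.33 to 1.39.

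MiR-182 and miR-183-5p were higher in VSD than in non-VSD myocardium by the DE-microRNA threshold. MiR-182 was above the non-VSD median (575 CPM) in 7 of 7 VSD libraries, and 3 of these (replicates 1, 4 and 5) exceeded every non-VSD library. Its log2 fold change was 1.34 ± 0.54 (SE), with an unadjusted p of 0.0201 and an edgeR adjusted p of 0.426, and the exact permutation p was 0.0443 (adjusted p = 0.281). For miR-183-5p the log2 fold change was 1.30 ± 0.55 (unadjusted p = 0.0287, edgeR adjusted p = 0.426). That of miR-96-5p was of like size, 1.21 ± 0.72, and did not meet the threshold (unadjusted p = 0.106, edgeR adjusted p = 0.465). DE-microRNAs were 5.18% (25 of 483) of those tested, and 0% (0 of 483) passed at an adjusted p under 0.05, by edgeR, DESeq2 or limma, with 56 at an unadjusted p under 0.05 by edgeR.

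Both marker lists stood higher in VSD than in non-VSD myocardium beside these values. All 8 epithelial microRNAs had a positive log2 fold change, with a median of 1.61, and 2 were DE-microRNAs. All 6 ciliated airway microRNAs did so too, with a median of 1.17 and 4 DE-microRNAs, and their summed level was 688 to 3109 CPM in VSD, 265 to 1076 CPM in non-VSD and 199 to 4546 CPM in NC libraries. The median over all 483 microRNAs tested was 0.02. Without the 4 libraries of high epithelial level, the log2 fold change of VSD against non-VSD was 0.11 for miR-182, -0.04 for miR-183-5p and -0.67 for miR-96-5p, and no member met the DE-microRNA threshold. The difference of mean log2 CPM was then 0.49, 0.22 and -0.19 in the same order (exact permutation p = 0.439, 0.745 and 0.836).

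The ratio between members within a library does not depend on how libraries are scaled, and it separated miR-96-5p from miR-182 in myocardium. Ratios were taken to miR-182 only, and that of miR-96-5p to miR-183-5p was not tested. For each 100 reads of miR-182, NC myocardium had 1.82 to 3.34 reads of miR-96-5p (median 2.61), non-VSD myocardium 2.84 to 10.2 (median 8.46) and VSD myocardium 1.67 to 10.2 (median 7.81). In both DMO groups, 6 of 7 libraries lay above every NC library. The exceptions were non-VSD replicate 1 at 2.84, inside the NC range, and VSD replicate 6 at 1.67, below it. The NC libraries kept this narrow range although their counts of miR-96-5p ran from 49 (replicate 5) to 1391 (replicate 2).

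The ratio rose 2.60-fold in non-VSD against NC myocardium, by 1.38 ± 0.28 on the log2 scale (SE, n = 7 in each group, exact two-sided permutation p = 0.00175, adjusted p = 0.0245 over 14 ratio tests). In VSD against NC it was 2.20-fold higher, by 1.14 ± 0.36 (exact permutation p = 0.0128, adjusted p = 0.0897). The smallest p that 7 against 7 samples can give is 0.000583. VSD and non-VSD myocardium differed by -0.24 ± 0.43 (exact permutation p = 0.596), where the SE exceeded the difference. Without the 4 libraries of high epithelial level the non-VSD value was 1.44 (exact permutation p = 0.0035), and the VSD value was 0.75 (exact permutation p = 0.11), with 4 VSD libraries left. As a share of the cluster's reads, miR-96-5p took 1.82% ± 0.30 in NC, 4.6% ± 1.73 in non-VSD and 4.25% ± 1.90 in VSD myocardium (SD, n = 7).

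The ratio of miR-96-5p to miR-182 also followed the epithelial sum over the 21 myocardium libraries, with r = 0.58 and rho = 0.62 after group means were removed (permutation p = 0.00014 and 0.00085, adjusted p = 0.0007 and 0.00425), and r = 0.53 without the 2 farthest libraries. Within the NC group, the 3 libraries at 167 to 225 CPM of epithelial microRNAs (replicates 1, 3 and 7) had ratios of 1.82, 2.61 and 2.59 reads per 100, and the 2 highest (5462 and 17532 CPM) had 2.97 and 3.34. NC replicates 4 and 5, at 1678 and 1084 CPM, had 2.31 and 2.78. The 7 non-VSD libraries had 296 to 7238 CPM of epithelial microRNAs and ratios of 2.84 to 10.2. The 7 VSD libraries had 1910 to 21156 CPM and ratios of 1.67 to 10.2. Against the ciliated airway sum, the same ratio had r = 0.53 and rho = 0.75 (adjusted permutation p = 0.00691 and 0.0009). Against the cardiac muscle sum, it had r = -0.39 and rho = -0.53 (adjusted permutation p = 0.211 and 0.045). The part of the epithelial level and of these other lists in the ratio was not tested further.

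The ratio of miR-183-5p to miR-182 varied less. It was 31.1 to 50.7 reads per 100 in NC (median 42.4), 42.1 to 62.4 in non-VSD (median 48.8) and 30.9 to 70.2 in VSD myocardium (median 44.1). The log2 difference from NC was 0.30 ± 0.12 in non-VSD (exact permutation p = 0.0274, adjusted p = 0.108) and 0.13 ± 0.17 in VSD (exact permutation p = 0.488). With 1 sample left out, the first had a p between 0.0128 and 0.0577, and it was above 0.05 without NC replicate 1 or 6 or non-VSD replicate 2, 5 or 6.

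**Figure D4:**
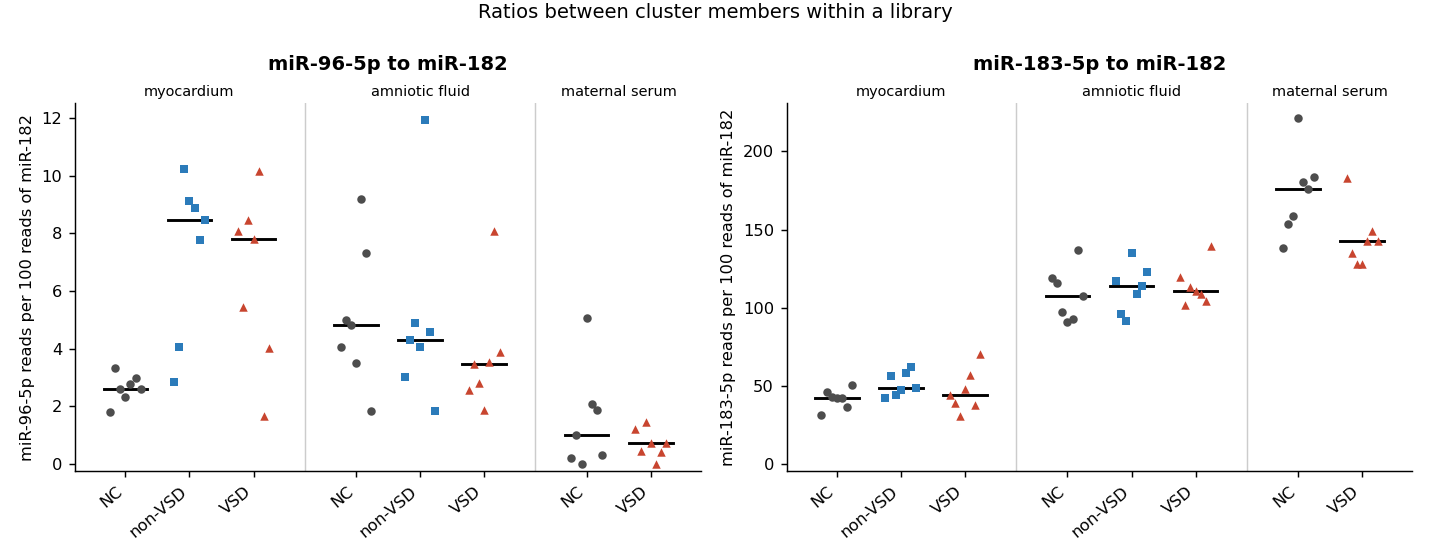
Reads of miR-96-5p (left) and miR-183-5p (right) per 100 reads of miR-182 in every library, on linear axes, with a bar at the median of each group of 7. In myocardium the 7 NC libraries sit between 1.82 and 3.34 for miR-96-5p, and 6 of 7 libraries of each DMO group lie above them.

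In amniotic fluid the members stood in the order VSD, NC, non-VSD for miR-183-5p and miR-182. MiR-182 was 9564 to 22184 CPM in VSD (median 20079), 8375 to 18983 in NC (median 15573) and 4650 to 13652 in non-VSD libraries (median 8861). MiR-183-5p was 9892 to 30966 CPM in VSD (median 22062), 7761 to 22001 in NC (median 16359) and 5063 to 15976 in non-VSD libraries (median 10785). All 7 VSD libraries were above the non-VSD median for miR-182 and 5 for miR-183-5p, and 5 VSD libraries lay above every non-VSD library for each of them.

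Between VSD and non-VSD amniotic fluid, the log2 fold change was 0.94 ± 0.29 for miR-182 (SE, unadjusted p = 0.00306, edgeR adjusted p = 0.104) and 0.99 ± 0.32 for miR-183-5p (unadjusted p = 0.00425, edgeR adjusted p = 0.129). They took places 8 and 9 of 273 when microRNAs were ordered by p. Both were just under 2-fold (1.91 and 1.99), so neither was a DE-microRNA, although 8 of the 14 fits with 1 sample left out brought 1 or both of them over that limit. Over all microRNAs, these 14 fits had 7 to 16 DE-microRNAs, of 272 to 278 tested. Exact permutation tests gave p = 0.00932 (adjusted p = 0.212) and p = 0.0152 (adjusted p = 0.307). MiR-96-5p differed by 0.59 ± 0.38 (edgeR adjusted p = 0.72). In that comparison 3.30% (9 of 273) were DE-microRNAs, and 0% (0 of 273) passed at an adjusted p under 0.05, with 29 at an unadjusted p under 0.05 by edgeR and 6 at an adjusted p under 0.05 by DESeq2, none of them a member.

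Against NC, the same 2 members differed in opposite directions in the DMO groups of amniotic fluid. In non-VSD, the log2 fold change was -0.56 ± 0.29 for miR-182, -0.54 ± 0.31 for miR-183-5p and -0.69 ± 0.40 for miR-96-5p (SE, edgeR adjusted p = 0.296, 0.349 and 0.352). All 7 non-VSD libraries were below the NC median for each of the 3 members, and the exact permutation p was 0.0291, 0.0676 and 0.0484 (adjusted p = 0.186, 0.277 and 0.217). None was a DE-microRNA, where 12.4% (30 of 242) were and 4.96% (12 of 242) passed at an adjusted p under 0.05. In VSD, it was 0.32 ± 0.28 for miR-182, 0.39 ± 0.31 for miR-183-5p and -0.17 ± 0.36 for miR-96-5p (edgeR adjusted p = 0.667, 0.638 and 0.838), with 95% intervals from -0.22 to 0.86, from -0.22 to 1.0 and from -0.86 to 0.53. None was a DE-microRNA there either, where 6.94% (17 of 245) were and 0% (0 of 245) passed at an adjusted p under 0.05, by edgeR or DESeq2, with 33 at an unadjusted p under 0.05 by edgeR.

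Marker lists of other cells also differed between the amniotic fluid groups. The 4 red blood cell microRNAs (miR-451-5p, miR-144-3p, miR-144-5p and miR-486), none at 0 in any group, summed to 15338 to 36170 CPM in NC (median 21821), 26321 to 85934 in non-VSD (median 64585) and 18210 to 129517 in VSD libraries (median 39244). All 4 had positive log2 fold changes in both DMO groups against NC, with a median of 2.81 in non-VSD (4 DE-microRNAs, 2 of them at an adjusted p under 0.05) and 2.02 in VSD (2 DE-microRNAs), while miR-182 and miR-183-5p had negative values in non-VSD and positive values in VSD. In VSD against non-VSD the red blood cell median was -0.60 and none was a DE-microRNA.

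The 8 epithelial microRNAs, none at 0, summed to a median of 119855 CPM in NC (87439 to 147261), 73113 in non-VSD (53304 to 122349) and 100386 in VSD amniotic fluid (51363 to 155666). Each microRNA counted alike, the median of their log2 fold changes was -0.15 in non-VSD against NC and -0.17 in VSD against NC. In each of these comparisons 6 of 8 were negative. In VSD against non-VSD the median was 0.02, and no comparison had any of them at the DE-microRNA threshold. The median summed level was lowest in non-VSD, as the median levels of the 3 members were. By the median log2 fold change, the list stood alike in both DMO groups against NC. MiR-182 and miR-183-5p were instead negative in non-VSD and positive in VSD. The 4 white blood cell microRNAs (miR-142-3p, miR-142-5p, miR-223-3p and miR-150-5p), none at 0, summed to 543 to 6967 CPM in NC (median 2889), 1752 to 26635 in non-VSD (median 9476) and 1092 to 28311 in VSD libraries (median 3131), and 1 of the 3 tested, miR-142-3p, was a DE-microRNA in non-VSD against NC (log2 fold change 2.86, edgeR adjusted p = 0.0606) and in VSD against NC (2.36, edgeR adjusted p = 0.231). The part of these lists in the members' values was not tested.

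MiR-96-5p was 165 to 555 CPM in non-VSD (median 413), 299 to 947 in NC (median 749) and 337 to 863 in VSD amniotic fluid (median 613). Its ratio to miR-182 had medians of 4.81 reads per 100 in NC, 4.3 in non-VSD and 3.46 in VSD libraries and ranged from 1.83 to 11.9, with single libraries at 11.9 (non-VSD replicate 5), 9.19 (NC replicate 5) and 8.09 (VSD replicate 6). None of the 3 group differences of this ratio had an exact permutation p under 0.05 (p = 0.272 for VSD against NC, 0.836 for non-VSD against NC and 0.407 for VSD against non-VSD). The ratio of miR-183-5p to miR-182 was nearly constant, with medians of 107, 114 and 111 reads per 100 in NC, non-VSD and VSD libraries, and differed between groups by at most 0.08 on the log2 scale (exact permutation p of at least 0.452).

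In maternal serum, miR-182 was 412 to 1076 CPM in NC (median 804) and 565 to 1694 CPM in the VSD group (median 968), and miR-183-5p was 727 to 2062 CPM (median 1276) and 1026 to 2168 CPM (median 1382). The groups overlapped, and the log2 fold changes were 0.45 ± 0.27 for miR-182 (SE, edgeR adjusted p = 0.522, 95% interval -0.09 to 0.99) and 0.14 ± 0.26 for miR-183-5p (edgeR adjusted p = 0.836, 95% interval -0.38 to 0.66). Neither was a DE-microRNA, where 4.57% (10 of 219) were and 0% (0 of 219) passed at an adjusted p under 0.05 by edgeR, with 30 at an unadjusted p under 0.05 and 4 at an adjusted p under 0.05 by DESeq2. MiR-183-5p stood at 139 to 222 reads per 100 reads of miR-182 in NC (median 176) and 128 to 183 in VSD (median 143), a log2 difference of -0.26 ± 0.11 (exact permutation p = 0.0309, adjusted p = 0.108). That p was above 0.05 (up to 0.0635) without any 1 of 6 samples, NC replicate 4, 5 or 7 or VSD replicate 2, 3 or 4.

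MiR-96-5p was at the limit of detection in serum. It had 27 reads over the 7 NC libraries and 16 over the 7 VSD libraries, of which 14 came from NC replicate 4 and 9 from VSD replicate 3. NC replicate 3 and VSD replicate 5 had none, where a count of 0 allows up to 11.05 and 8.10 CPM. No fold change is given for miR-96-5p there, since it did not pass the filter.

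The change from NC was compared between tissues by permuting labels within each tissue, which takes samples of different tissues as independent. For miR-96-5p, the VSD change in mean log2 CPM was 1.62 in myocardium and -0.15 in amniotic fluid, a difference of 1.78 (permutation p = 0.0574), and it was -0.08 in serum, a difference of 1.70 from myocardium (permutation p = 0.0888). Scaled by library size only, the first difference was 2.23 (permutation p = 0.0374). For miR-183-5p and miR-182 the VSD change differed between tissues by 0.03 to 0.42 in size (permutation p of at least 0.537). In the non-VSD group, miR-183-5p and miR-182 had changes of -0.56 and -0.86 in myocardium and -0.61 and -0.66 in amniotic fluid, which differed by 0.05 and -0.20 (permutation p = 0.943 and 0.778), and miR-96-5p had 0.52 and -0.74, a difference of 1.26 (permutation p = 0.137). These were 12 comparisons, of which none had a p under 0.05 with TMM scaling.

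MiR-183-5p and miR-182 varied together in all 3 tissues, and miR-96-5p joined them in myocardium. With group means removed, Pearson's r between miR-183-5p and miR-182 was 0.97 in myocardium (rho 0.94, 21 libraries), 0.95 in amniotic fluid (rho 0.92, 21 libraries) and 0.93 in serum (rho 0.91, 14 libraries). Permutation within groups gave p-values of 1e-05 (the smallest that 100000 permutations can give) in the first 2 tissues and 3e-05 for r and 1e-04 for rho in serum, with adjusted p-values of at most 0.000225 over 9 relations. Without the 2 libraries farthest from the median of miR-182, r was 0.96, 0.94 and 0.93. Within single groups of 7 libraries r lay between 0.94 and 0.98.

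Between miR-96-5p and miR-182, r was 0.94 in myocardium (rho 0.92, permutation p = 1e-05 for both), 0.16 in amniotic fluid (rho 0.19, permutation p = 0.513 and 0.432) and 0.12 in serum (rho -0.15, permutation p = 0.717 and 0.624). In myocardium r was 0.92 without the 2 farthest libraries and 0.89 without the 4 libraries of high epithelial level. In amniotic fluid it was 0.42 without the 2 farthest (permutation p = 0.0902). Counts of miR-96-5p were 15 to 184 per library in amniotic fluid, 0 to 14 in serum and 30 to 3592 in myocardium, so that counting error weighs more in the fluids. Between miR-96-5p and miR-183-5p, r was 0.92 in myocardium (rho 0.81, permutation p = 1e-05 and 0.00022), 0.16 in amniotic fluid (rho 0.10) and 0.29 in serum (rho -0.06).

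**Figure D5:**
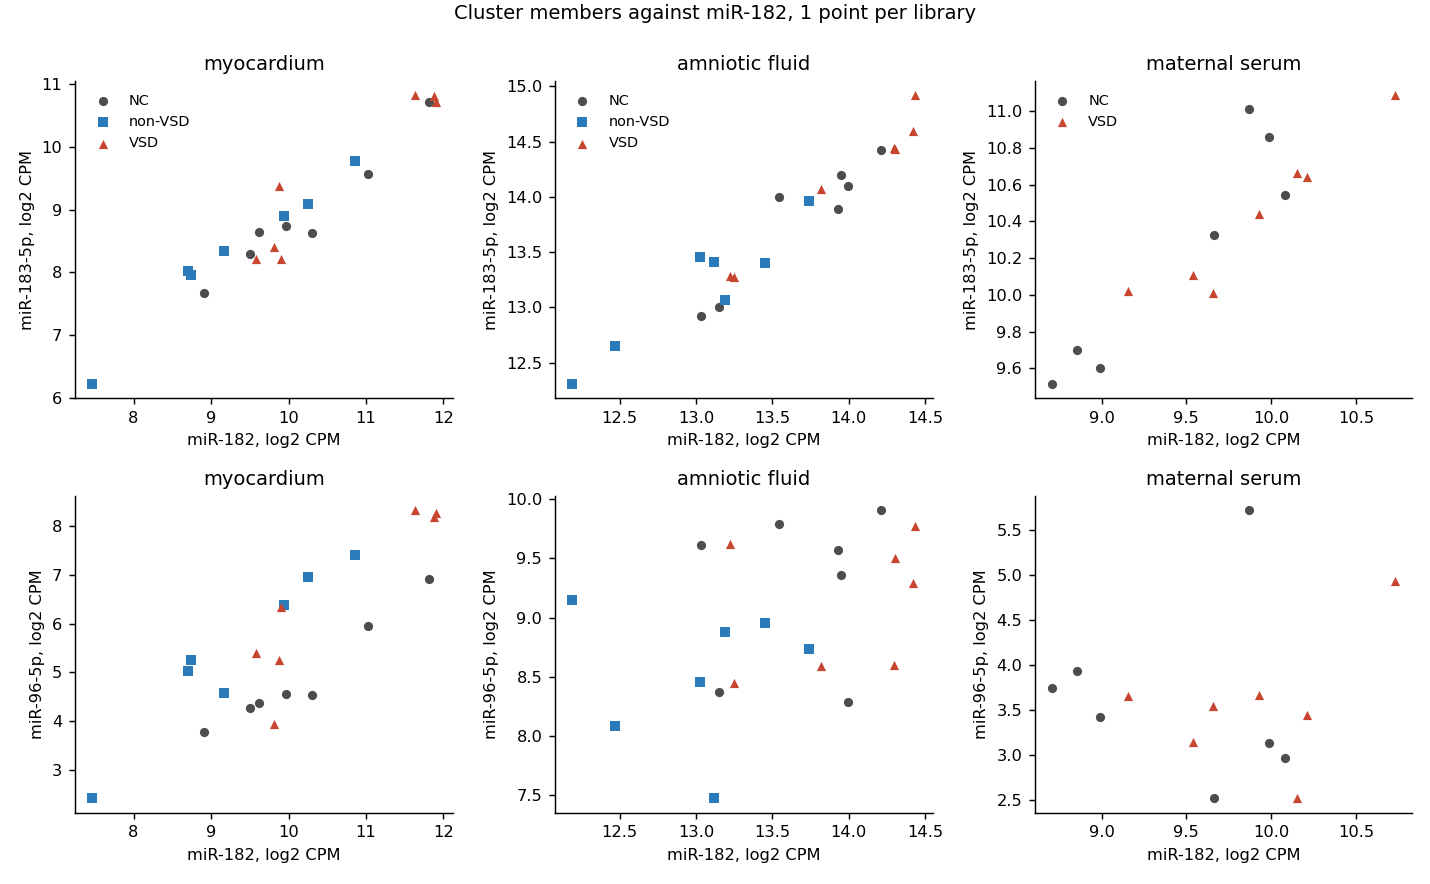
Log2 CPM of miR-183-5p (upper row) and miR-96-5p (lower row) against that of miR-182 in each tissue, 1 point per library. MiR-183-5p follows miR-182 in all tissues (r = 0.97, 0.95 and 0.93 with group means removed), and miR-96-5p does so in myocardium (r = 0.94), where at a given level of miR-182 most DMO libraries lie above the NC libraries.

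The microRNAs most like each member were listed by Spearman's rho of group-centred log2 CPM, a description over the libraries of 1 tissue, which share depth and scaling. MiR-182 was the closest to miR-183-5p, and the reverse, in every tissue, among 482 microRNAs in myocardium, 272 in amniotic fluid and 218 in serum. In myocardium miR-182 was also the closest to miR-96-5p (rho 0.92), while miR-96-5p was 2nd for miR-182 and 10th for miR-183-5p. MiR-92b-3p, of the miR-92 family, followed each of the 3 members there (rho 0.88 for miR-183-5p, 0.86 for miR-96-5p and 0.87 for miR-182). Next for miR-183-5p came miR-141-3p, of the epithelial list (3rd, rho 0.86), miR-92b-5p and miR-200b-5p. For miR-96-5p these were miR-369-3p, miR-539-3p and miR-10a-5p, and for miR-182 miR-455-5p and miR-672-5p, none of the epithelial list. MiR-141-3p was 7th for miR-182 (rho 0.80).

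The order changed in the fluids. In amniotic fluid, miR-196c-5p, of the miR-196 family, came next after the cluster partner for miR-182 (rho 0.80) and miR-183-5p (rho 0.72). MiR-96-5p was placed 75th for miR-182 and 94th for miR-183-5p, and its own closest microRNA was miR-22-3p (rho 0.74), followed by miR-106b-5p (rho 0.69). In serum, miR-542-5p was as close to miR-182 as miR-183-5p was (rho 0.91 for both) and was 2nd for miR-183-5p (rho 0.89). The closest to miR-96-5p in serum was miR-652-3p (rho 0.71), at counts of 0 to 14 reads of miR-96-5p per library.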

How the data were processed

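Small RNA libraries of 21 myocardium, 21 amniotic fluid and 14 maternal serum samples were analysed. The authors filtered reads for quality (bcl2fastq 2.19 and the FASTX-Toolkit are named) and deposited whole-number read counts per mature microRNA, without normalization, which were the values used here. The aligner, the annotation and the genome build are not given in the sources used here. The authors also deposited a normalized signal for myocardium and serum and CPM for amniotic fluid, which were not used. The kit used for amniotic fluid adds molecular identifiers, and whether they were used in counting is not given in the sources used here. Their group comparison was deposited as a log2 value, as a fold change and as a p-value, and these hold the paper's findings and were not used.

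Counts were fitted in R 4.3.3 with edgeR 4.0.16 (filterByExpr with a minimum count of 10, TMM, quasi-likelihood test, Benjamini-Hochberg over all microRNAs tested), with the 7 samples of each of the 2 groups, or all 3 groups for VSD against non-VSD. The study's methods name DESeq and limma. Log2 CPM had a prior count of 2, and ratios had 0.5 added to each count. SE of a log2 fold change was derived from the fold change and its F statistic, and 95% intervals are normal ones. Single values used exact permutation tests, and correlations 100000 permutations within groups, in Python 3.11.15 with numpy 2.4.6 and scipy 1.17.1. MicroRNAs in 1 amniotic fluid table only were set to 0 in the other. Scripts were tested on simulated data. NC samples are the same in both tables of a tissue. No pair of libraries agreed within sampling noise. Limits of detection cover counting error only. The 95% intervals of log2 fold changes also carry the spread between samples, through the edgeR fit.

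Each fit was repeated by DESeq2 1.42.0, by limma 3.58.1 (log2 of CPM + 1), with library size scaling, other filters, another set of groups, replicate numbers as a block and each sample left out. Single values were repeated with a prior count of 0.5 and ratios with 2 added to each count. Leaving out the 4 myocardium libraries of high epithelial level, and each sample for the ratios, was chosen after seeing the data. The members are always named. The marker lists (cardiac muscle, epithelial, ciliated airway, red and white blood cell, neural, placental and embryonic, and liver) are given by counts and medians, and the 5 microRNAs of highest rho by the order of likeness. Members and lists were chosen with earlier results of these data known.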

Additional observations from a re-analysis of the deposited data

Results flagged for a closer look

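Within groups of 7, the highest and the lowest value were each set against the nearest neighbour in 40 sets of the members' levels and ratios. In 7 sets the larger gap was over Dixon's 95% critical value. Chance gives about 1 in 20 such sets for normally distributed values, which was not tested here. Sets from the same libraries are not independent. MiR-183-5p stood at 1673 CPM in myocardium NC replicate 2, next to 761, and that library also had the highest epithelial sum of its group. In serum, miR-96-5p stood at 47.0 CPM in NC replicate 4 (14 reads), next to 9.51, and at 24.8 CPM in VSD replicate 3 (9 reads), next to 7.02. The ratio of miR-96-5p to miR-182 stood at 5.05 reads per 100 in serum NC replicate 4, next to 2.08. In amniotic fluid it stood at 8.09 in VSD replicate 6, next to 3.89, and at 11.94 in non-VSD replicate 5, next to 4.89. The ratio of miR-183-5p to miR-182 stood at 183 reads per 100 in serum VSD replicate 1, next to 149. No change from NC differed between tissues at a permutation p under 0.05 with TMM scaling.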

How the results depend on the processing

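Without the 4 myocardium libraries of high epithelial level, the log2 fold change of VSD against NC turned to -0.0380 for miR-183-5p and -0.229 for miR-182, and that of VSD against non-VSD to -0.0383 for miR-183-5p and -0.674 for miR-96-5p. The permutation differences turned to -0.036 (miR-183-5p) and -0.092 (miR-182) in VSD against NC and -0.195 (miR-96-5p) in VSD against non-VSD, and the ratio of miR-96-5p to miR-182 in VSD against NC was 0.753. Those of miR-182 and miR-183-5p in VSD against non-VSD stayed positive, at 0.493 and 0.223. Without these libraries, members at the DE-microRNA threshold numbered 0 in VSD against NC, 1 in non-VSD against NC and 0 in VSD against non-VSD. Over all microRNAs, 34 of 474, 25 of 455 and 11 of 485 were DE-microRNAs in the same order. By DESeq2, miR-96-5p in VSD against NC myocardium was at 1.964 (adjusted p = 0.0362). It was the 1 member among 46 of 469 microRNAs that passed by DESeq2, against 2 of 469 by edgeR. Its edgeR, DESeq2 and limma adjusted p ranged from 0.0242 to 0.492 over all alternatives. With library size scaling, the median of all microRNAs in VSD against NC myocardium was 0.32, and 33 of 45 DE-microRNAs were higher, against 12 of 32 with TMM. In non-VSD against NC, 16 of 20 were higher, against 8 of 19, and in amniotic fluid 17 of 28, against 21 of 30. The difference between myocardium and amniotic fluid was then 2.23 for miR-96-5p in VSD and turned to 0.036 for miR-182 in non-VSD. The cause of these changes was not tested.

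Same-numbered samples of different groups within a tissue did not deviate together, with correlations of -0.64 to 0.52 and at most 1 of 7 pairs closest to its own number. Between the groups of a tissue, the numbers were therefore taken only as names. Whether a number marks the same fetus or dam across tissues was not checked. With the replicate number as a block, members at the DE-microRNA threshold numbered 0 in VSD against NC and 1 in VSD against non-VSD myocardium, and 1 in VSD against non-VSD amniotic fluid, and the log2 fold change of miR-96-5p in VSD against NC myocardium was 1.80 (adjusted p = 0.358).

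With 1 sample left out, miR-96-5p in VSD against NC myocardium ranged from 1.64 to 2.52 (adjusted p = 0.0242 without NC replicate 2), with 0 to 1 members at an adjusted p under 0.05 and 1 to 2 DE-microRNAs. Without NC replicate 2, 77 of 474 microRNAs passed at an adjusted p under 0.05 and 83 were DE-microRNAs. With all samples these numbers were 2 and 32 of 469. DE-microRNAs among the members ranged from 0 to 1 in non-VSD against NC (1 without NC replicate 2 or non-VSD replicate 4), and from 0 to 2 in VSD against non-VSD myocardium (0 without non-VSD replicate 6 or VSD replicate 1 or 4, 1 without non-VSD replicate 1 or 5 or VSD replicate 5) and amniotic fluid (2 without non-VSD replicate 1 or 2 or VSD replicate 2 or 6, 1 without non-VSD replicate 4 or 7 or VSD replicate 1 or 4). Over all microRNAs in non-VSD against NC myocardium, 25 of 455 were DE-microRNAs without NC replicate 2 and 18 of 464 without non-VSD replicate 4. In VSD against non-VSD myocardium, 16 to 37 microRNAs were, of 484 to 488 tested. MiR-183-5p in serum ranged from -0.057 (without NC replicate 2) to 0.279. The ratio of miR-96-5p to miR-182 ranged from -0.445 to 0.054 in VSD against non-VSD myocardium, from -0.336 to 0.105 in non-VSD against NC amniotic fluid and from -0.758 to 0.026 in serum. That of miR-183-5p to miR-182 ranged from 0.230 to 0.347 in non-VSD against NC myocardium, from -0.023 to 0.073 in VSD against non-VSD amniotic fluid and from -0.319 to -0.198 in serum. Depth limits miR-96-5p in serum, where it had 0 to 14 reads per library.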

Other observations

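The neural list (miR-124-3p, miR-9a-5p, miR-9a-3p, miR-137-3p, miR-7a-5p and miR-7b), microRNAs of neurons, is given because the miR-183 cluster is best known from sensory cells. In VSD against NC myocardium, 5 of its 6 members had a positive log2 fold change (median 0.75), of which 2 were DE-microRNAs, and the lowest edgeR adjusted p was 0.0915. In VSD against non-VSD myocardium all 6 were positive (median 1.0) and 1 was a DE-microRNA, and in non-VSD against NC all 4 tested were negative (median -0.15) and 1 was a DE-microRNA. In amniotic fluid, all 3 tested were positive in non-VSD against NC (median 1.83) and all 3 were negative in VSD against non-VSD (median -0.63), with 1 DE-microRNA in each, and in VSD against NC 2 of 3 were positive (median 0.91) with none at that threshold. The 1 tested in serum stood at -0.33.

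The placental and embryonic list (miR-292-5p, miR-293-5p, miR-291a-3p and miR-295-3p) summed to a median of 543 CPM in NC, 1220 in non-VSD and 871 in VSD amniotic fluid, and 1 of the 2 tested passed in non-VSD against NC (lowest edgeR adjusted p = 0.0272). In myocardium it summed to at most 60.7 CPM, with 2 of 4 DE-microRNAs in non-VSD against NC, both higher, and 2 of 4 in VSD against non-VSD, both lower. In serum the 1 tested was a DE-microRNA at 2.07 in VSD against NC. The liver list (miR-122-5p, miR-192-5p and miR-194-5p) had 1 of 3 DE-microRNAs in VSD against NC and 1 of 3 in VSD against non-VSD amniotic fluid, both higher, and none in myocardium or serum. In serum, none of the white blood cell list was a DE-microRNA (median 0.15). In maternal serum, the epithelial list summed to 1384 to 2309 CPM in NC and 965 to 2797 CPM in VSD libraries.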
